A study of Mus musculus with 2 samples.

Results

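Plasmacytoid dendritic cells (pDC) made up 72 of the 11078 CD45+ cells kept from 2 scRNA-Seq libraries of mouse heart. There were 21 pDC among 5641 kept cells of the control library and 51 among 5437 kept cells of the isoproterenol (ISO) library. A cell was taken as pDC when it held at least 5 unique molecular identifiers (UMIs, each marking 1 captured RNA molecule) of Siglech, Ccr9, Cox6a2, and Klk1 together, at least 3 of them from Siglech. It also had to hold at most 3 UMIs of the macrophage genes C1qa, C1qb, and C1qc, at most 2 of the B cell genes Cd79a and Ms4a1, at most 1 of the T cell genes Cd3d and Cd3e, and under 1% of its UMIs from the neutrophil genes S100a8 and S100a9. The cells were thus selected on the UMIs of these genes, whose levels are given only as a description.

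ISO, an agonist of beta-adrenergic receptors, was given to adult female C57BL6 mice as 1 intraperitoneal dose of 200 mg/kg. Controls were injected with PBS, the vehicle. After 24 hours the hearts were perfused and digested with collagenase, and live CD45+ cells, the leukocytes of the heart, were sorted by FACS. The cells of 3 hearts were pooled in 1 library per group, so a difference between the groups could not be set against the spread between mice and no test was made. Intervals are 95% intervals of counting error alone. For gene levels they take each UMI as an independent count, so the spread between cells is left out as well. A difference between the libraries may come from the treatment, from the mice, or from the preparation of each library, which cannot be told apart.

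The libraries held 47382455 UMIs in 5927 barcodes (control) and 58495112 UMIs in 5514 barcodes (ISO), and the kept cells had a median of 4790 and 8537 UMIs. In all, 15 barcodes occurred in both libraries, and 0 of these were pDC. The pDC held 194137 UMIs in the control library and 329578 in the ISO library, so a gene without any UMI could still be present at up to 15.5 CPM (counts per 1000000, a gene's UMIs over all UMIs of the group) in control pDC and 9.10 CPM in ISO pDC.

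pDC are round, plasma cell-like dendritic cells that develop in the bone marrow under the transcription factor Tcf4 (E2-2) and circulate in the blood. They read the RNA and DNA of viruses, or of dying cells, through the endosomal receptors Tlr7 and Tlr9, and answer with large amounts of type I interferon. They carry little MHC class II at rest, and they are sparse in healthy heart.

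On mm10 with GENCODE M21 annotation, Siglech lies at chr7:55768178-55778925, Ccr9 at chr9:123678439-123784330, Cox6a2 at chr7:128205435-128206387, and Klk1 at chr7:44225360-44229618, all protein-coding genes. Promoters of genes that chose the cells are shown because Tcf4 binds E-box sequences. The sequences are the 250 bases before the RefSeq transcription start on GRCm38.p6, written 5′ to 3′ on the sense strand, with the E-box CAGGTG or its reverse complement in capitals.
Siglech, chr7:55767934-55768183, strand +: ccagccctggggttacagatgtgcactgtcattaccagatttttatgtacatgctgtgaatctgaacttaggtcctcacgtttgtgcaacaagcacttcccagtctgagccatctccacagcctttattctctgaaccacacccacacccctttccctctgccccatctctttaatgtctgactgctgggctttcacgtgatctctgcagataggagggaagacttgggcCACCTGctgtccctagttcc
Ccr9, chr9:123766961-123767210, strand +: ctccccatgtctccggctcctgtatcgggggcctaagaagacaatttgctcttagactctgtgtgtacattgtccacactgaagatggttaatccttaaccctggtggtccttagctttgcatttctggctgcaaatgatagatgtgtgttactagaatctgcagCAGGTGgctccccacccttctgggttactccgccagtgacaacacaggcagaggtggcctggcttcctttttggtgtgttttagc
Klk1, chr7:44225110-44225359, strand +: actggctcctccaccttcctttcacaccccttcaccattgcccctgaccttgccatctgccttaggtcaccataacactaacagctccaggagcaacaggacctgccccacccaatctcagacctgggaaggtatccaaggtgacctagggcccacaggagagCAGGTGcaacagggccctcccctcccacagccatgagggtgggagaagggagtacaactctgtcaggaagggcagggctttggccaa
The E-box starts 20 bases before the start of Siglech, 85 bases before Ccr9, and 87 bases before Klk1. Of the 4 genes, 3 had a promoter in the table, and all 3 held the hexamer, compared with 17.2% of 32851 promoters of the same length. Among the genes described below that led in pDC, 4 of the 18 with a promoter held it (22.2%). A match of 6 letters is a description and does not show that a factor binds there.

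The genes that chose the cells had these values. Siglech, a lectin of the pDC surface, held 4 to 36 UMIs per control pDC (median 13) and 3 to 27 per ISO pDC (median 10). Its summed level was 1695 CPM in control and 1696 CPM in ISO pDC. Ccr9, a chemokine receptor, was found in 19 of 21 control and 47 of 51 ISO pDC. Cox6a2, a cytochrome c oxidase subunit best known from heart and skeletal muscle, was found in 14 of 21 and 35 of 51. Klk1, a kallikrein protease, was found in 14 of 21 and 21 of 51. Siglech was thus present in every pDC by rule, whereas each of the other 3 was missing from some. Near the threshold, 3 ISO pDC held a sum of exactly 5 UMIs and 2 held exactly 3 of Siglech, whereas 3 control and 6 ISO cells with a sum of 4 fell just outside. The limits on other lineages removed 10 cells with pDC markers from each library, mostly by macrophage UMIs (9 control and 8 ISO cells).

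The markers fixed for the label and not used by the choice were both present. Tcf4 was found in all 21 control pDC (9 to 29 UMIs, median 17) and in all 51 ISO pDC (1 to 20 UMIs, median 9). Pacsin1, an adaptor protein of pDC and neurons, was found in 19 of 21 control and 35 of 51 ISO pDC. In the other kept cells, Pacsin1 reached 6.95 CPM (control) and 1.92 CPM (ISO), compared with 252 and 319 CPM in pDC. Both markers were thus far above their level in the other cells of either library.

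pDC formed 0.372% of the kept control cells (95% Clopper-Pearson interval, 0.231% to 0.569%) and 0.938% of the kept ISO cells (0.699% to 1.23%). The share was 2.52-fold higher in the ISO library, a log2 ratio of 1.33 with a counting interval of 0.57 to 2.14. Among dendritic cells alone the ratio lay below 0, with a counting interval that includes 0. Type 2 conventional dendritic cells numbered 46 in control and 249 in ISO. pDC were 21.2% of the 99 control dendritic cells and 15.2% of the 335 ISO dendritic cells (log2 ratio -0.48, interval -1.24 to 0.33). Over the 4868 control and 5404 ISO kept cells with fewer than 5 UMIs of the B cell genes Cd79a and Ms4a1, the log2 ratio of the share was 1.13. A share says nothing about numbers per heart, since the number of leukocytes in each heart is not in these counts.

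ISO pDC held fewer UMIs than control pDC. Control pDC held 7193 to 11727 UMIs (median 9057), and ISO pDC held 3497 to 24521 UMIs (median 5255). Of the 51 ISO pDC, 45 lay below the lowest control pDC, although the ISO library as a whole was the deeper one. The median of control pDC lay at the 74.0th percentile of its library, and that of ISO pDC at the 14.0th. The ratio of the medians, control over ISO, was 1.72 in pDC, 1.35 in type 1 and 1.34 in type 2 conventional dendritic cells, and 0.71 in macrophages. Less RNA per cell and weaker capture of the RNA cannot be told apart. With the marker thresholds set in CPM and at least 3 UMIs in the sum, 21 control and 54 ISO cells passed, and the log2 ratio of the share was 1.42. The share of mitochondrial UMIs was alike, with medians of 3.10% in control and 3.05% in ISO pDC.

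**Figure D1:**
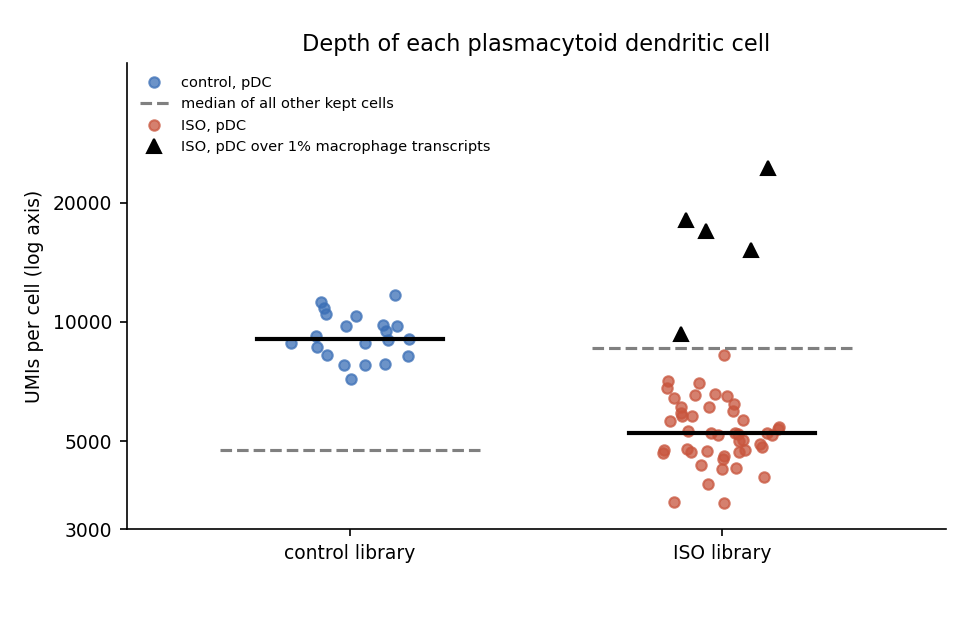
UMIs of each pDC (log axis) in the control library (21 cells) and the ISO library (51 cells); solid bars are the medians of pDC, dashed lines the medians of all other kept cells, and triangles the pDC with over 1% macrophage transcripts. Most ISO pDC lie below every control pDC, and the 5 triangles stand above the other ISO pDC.

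A group of 5 ISO pDC also carried macrophage RNA. Transcripts of a list of 25 macrophage genes made up 1.22% to 8.82% of their UMIs, compared with 0.027% to 0.384% in control pDC. They held 9299 to 24521 UMIs and 25.5% of all UMIs of ISO pDC, and they had 1 to 198 UMIs of Lyz2, the lysozyme of macrophages and monocytes. The deepest held 1094 UMIs of Spp1 (osteopontin). No doublet caller was run, and whether these droplets held 2 cells was not tested. Values are given for all 51 ISO pDC, and in many cases again for the 46 without them. The share of pDC without these cells was 0.846% in the ISO library.

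Measured against the other kept cells of the same library, pDC had a broad profile of their own. Of 4259 genes with at least 20 UMIs in pDC, 513 (12.0%) were at least 2-fold higher in pDC in both libraries and 143 (3.36%) at least 2-fold lower. Of 24 pDC markers not used by the choice, 21 were 2-fold higher in both libraries and 0 lower. The choice favors genes that go with Siglech, so this count describes the cells and tests nothing.

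The 25 genes that led in pDC over other cells in both libraries were all highest in pDC among pDC, conventional dendritic cells, B cells, and macrophages. Sh3bgr, an SH3-domain binding protein, stood at 185 CPM in control and 146 CPM in ISO pDC, compared with 0.58 and 0.44 CPM in the other cells. Dntt, the terminal transferase that adds bases at joints of antigen receptor genes, stood at 134 and 115 CPM, compared with 0.65 and 0.24 CPM. Cd300c, an activating receptor of myeloid cells, was found in 20 of 21 control and 40 of 51 ISO pDC. The other kept cells held few UMIs of these genes in either library. Others of the 25 were Gm14207, Paqr5, 2810442I21Rik, Upb1, Lefty1, Smim5, Lrp8, Klra17, Lag3, P2ry14, Cd7, Rpgrip1, Atp1b1, Sla2, and Rnase6, besides Pacsin1, Tcf4, and the lectin gene Cd209d.

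Runx2, a transcription factor that pDC need to leave the marrow, stood at 1025 CPM in control and 734 CPM in ISO pDC, compared with 21.4 and 24.3 CPM in other cells. Its log2 ratio was -0.48, and -0.23 without the 5 ISO pDC with macrophage RNA. Bst2 (tetherin), the antigen used to sort mouse pDC, stood at 5476 and 4224 CPM (log2 ratio -0.37, and -0.09 without the 5 cells). Every pDC had Bst2, with 36 to 90 UMIs in control and 7 to 45 in ISO cells. Lag3, an inhibitory receptor that binds MHC class II, was higher in ISO pDC (349 compared with 242 CPM), with an interval of 0.03 to 1.05 on the log2 scale. Tex2 and Tmem229b were at least 2-fold lower in ISO pDC with all cells, with log2 ratios of -1.19 and -1.45. Without the 5 cells the ratios were -0.84 and -1.20, so only Tmem229b stayed past 2-fold.

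**Figure D2:**
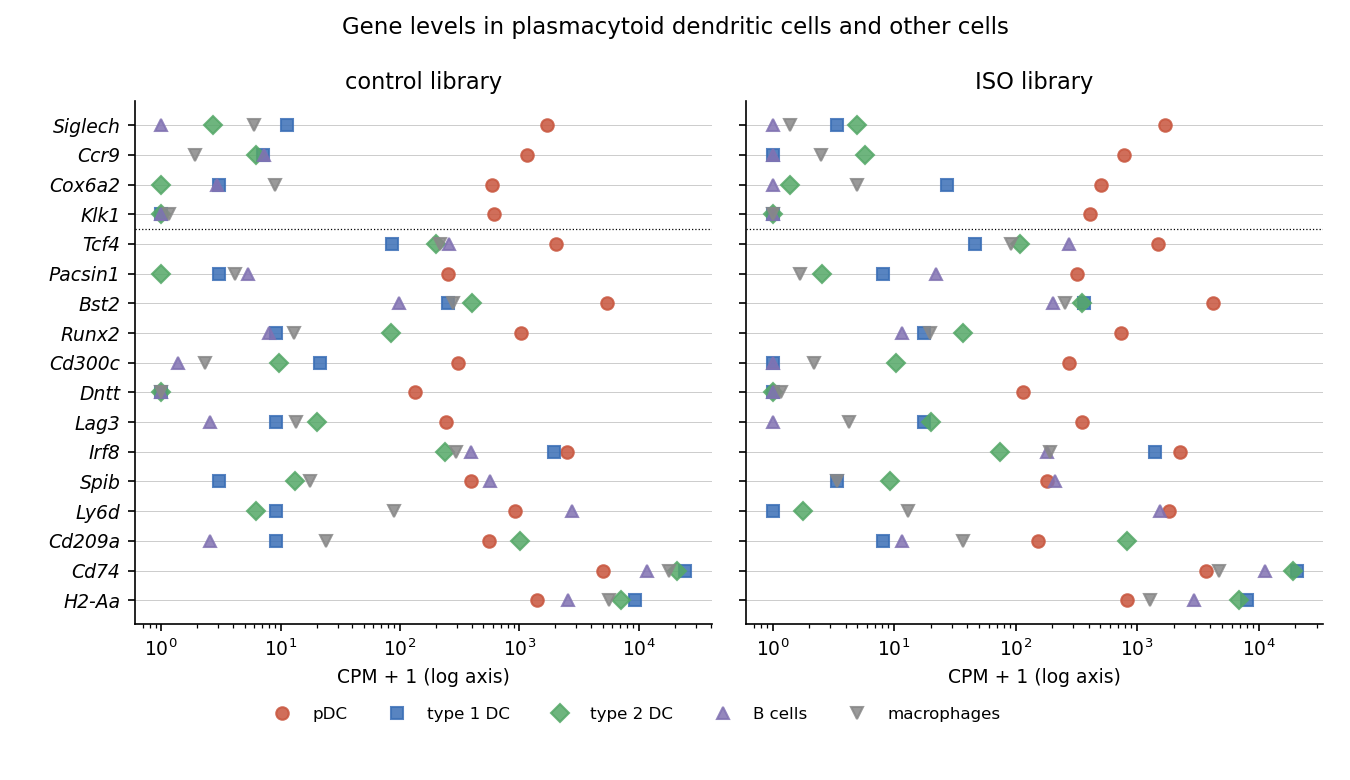
Summed level of 17 genes (CPM + 1, log axis) in pDC, type 1 and type 2 conventional dendritic cells, B cells, and macrophages of each library; the 4 genes above the dotted line chose the pDC. Tcf4 to Lag3 are highest in pDC in both panels, Irf8 is also high in type 1 cells, Spib and Ly6d in B cells, and Cd74 and H2-Aa are lower in pDC than in conventional dendritic cells.

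Between the libraries, 370 of the 4259 genes (8.69%) were at least 2-fold higher in ISO pDC and 257 (6.03%) at least 2-fold lower. The median log2 ratio over all of them was 0.02. On the same genes without the 5 cells, 336 were higher and 266 lower. These genes had passed the filter on UMIs with the 5 cells included, so genes that passed only through those cells stayed in. With the filter applied again without the 5 cells, 226 were higher and 215 lower. The lists below kept their genes in the same way, so their values without the 5 cells share this limit. The log2 ratio was above 0 for 2184 of the 4259 genes with all cells and for 2227 without the 5 cells. These shares are the background for each list below. Among genes with at least 50 UMIs, 122 were higher and 72 lower. Over the 24 pDC markers compared, 1 was higher (Ly6d) and 2 lower, with a median of -0.27, and 0.08 without the 5 cells.

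Transcripts of other cell types differed in how far they reached into pDC. Of the macrophage list, 15 genes could be compared, with 12 at least 2-fold higher and 1 lower in ISO pDC, and 11 higher and 1 lower without the 5 cells. The list summed to 268 to 3841 CPM per control pDC and 213 to 88169 CPM per ISO pDC. Of the monocyte list, 5 of 9 genes were higher, and 4 without the 5 cells. Xcr1, Itgae, and Batf3 of type 1 conventional dendritic cells, Ccl17 of type 2 cells, Cxcr2, Retnlg, and Ngp of neutrophils, and the hemoglobin genes were at 0 in both groups of pDC. Other members of these lists were detected. Of 12 neutrophil genes 5 were at 0, and the list held 2 UMIs in control and 51 in ISO pDC, 10 of them outside the 5 cells (10.3 and 155 CPM, log2 ratio 3.60, interval 1.98 to 6.99). Of 10 genes of type 1 conventional dendritic cells 5 were at 0, and the list summed to 216 and 167 CPM. Of 8 genes of type 2 cells, Cd209a among them, 4 were at 0, and the list summed to 849.9 and 525 CPM. Of 19 cardiomyocyte genes, 13 had no UMI, and the list summed to at most 609.5 CPM per control pDC and 819 CPM per ISO pDC.

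Transcription factors of pDC had a median log2 ratio of -0.35 over 22 genes, with 2 at least 2-fold higher and 4 lower, and -0.23 with 0 higher and 4 lower without the 5 cells. Tcf4 was 2014 CPM in control and 1484 CPM in ISO pDC (log2 ratio -0.44, interval -0.64 to -0.25). Without the 5 cells it was 1711 CPM in ISO pDC, a log2 ratio of -0.24. Irf8, which sets the balance of dendritic cell types, was 2519 and 2267 CPM (interval -0.32 to 0.02). Neither factor passed a 2-fold difference. Spib, an ETS factor that acts with Tcf4, was 391 and 179 CPM, with 0 to 9 UMIs per control pDC (median 3) and 0 to 8 per ISO pDC (median 1). Its log2 ratio was -1.13, and -0.80 without the 5 cells. Ets1, Stat5b, and Bcl6 were the others below, with log2 ratios of -1.11, -1.09, and -1.42. Id2, the inhibitor that opposes Tcf4, was above with all cells (2.77), and its ratio was -1.56 without the 5 cells. Spi1 was above as well (1.33, and 0.49 without them).

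The machinery of endosomal nucleic acid sensing was close between the libraries. Over 20 genes the median log2 ratio was 0.10, with 0 genes at least 2-fold higher and 1 lower. Tlr7, the receptor of single-stranded RNA, was found in 12 of 21 control and 18 of 51 ISO pDC, at 124 and 69.8 CPM (interval of the log2 ratio -1.72 to 0.06). Unc93b1, the escort of these receptors, stood at 768 and 616 CPM, and Pld4, a nuclease that trims their ligands, at 860 and 692 CPM. Slc15a4, an endosomal transporter needed for Tlr7 and Tlr9 responses, was the gene below (258 and 127 CPM, log2 ratio -1.01, and -0.73 without the 5 cells). Tlr9 held 0 UMIs in control and 2 in ISO pDC, below what this depth can compare.

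Interferon genes were not detected. The 10 interferon genes in the files, among them Ifna1, Ifna4, and Ifnb1, held 0 UMIs in control and 0 in ISO pDC, which allows up to 15.5 and 9.10 CPM for each gene and up to 14.3% and 5.88% of cells with a UMI. Interferon-stimulated genes had a median log2 ratio of -0.12 over 27 genes, with 3 higher and 0 lower. The 3 were Slfn2 (1.96), Phf11b (1.10), and Ly6a (1.03), and without the 5 cells the median was -0.34, with 3 higher and 3 lower. Irf7, the factor that amplifies interferon, was 206 and 158 CPM. Receptors and transducers of interferon had a median of 0.03 over 10 genes, with 0 past 2-fold either way.

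C-type lectins of the DC-SIGN family were lower in ISO pDC. Cd209d held 0 to 76 UMIs per control pDC (median 7) and 0 to 17 per ISO pDC (median 1), and was found in 20 of 21 and 32 of 51 cells. Its level was 1417 CPM in control and 385 CPM in ISO pDC, a log2 ratio of -1.88 (interval -2.19 to -1.57), and -1.52 without the 5 cells. Thinned to 1000 UMIs per cell, Cd209d was found in 66.7% of control and 27.5% of ISO pDC, and in 0.077% of control and 0.072% of ISO macrophages. Cd209a was 551 and 152 CPM (log2 ratio -1.85, and -1.55 without the 5 cells). In the other kept cells both genes stood higher in the ISO library, by 1.16 and 0.86 on the log2 scale. The Cd209 genes are near copies of each other, and reads could be split among them.

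Other surface receptors that tune pDC had a median log2 ratio of -0.12 over 18 genes, with 2 higher and 2 lower. Without the 5 cells the median was 0.14, with 12 of 18 genes above 0 (2227 of all 4259 genes were), 1 higher, and 2 lower. Tyrobp (DAP12), the adaptor through which Siglech signals, was 4363 and 4035 CPM, and Cd47 was 1370 and 1338 CPM. Klra17, a receptor of the Ly49 family, was 232 and 127 CPM (interval of the log2 ratio -1.51 to -0.22). Ly9, a SLAM receptor, was the other gene below beside Cd209d (82.4 and 24.3 CPM). Fcgr2b, the inhibitory Fc receptor, was above with all cells (3.02) and at 0.51 without the 5 cells.

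Lymphoid genes split. Cd4 was found in 9 of 21 control and 8 of 51 ISO pDC, and its level was 134 and 42.5 CPM (log2 ratio -1.63, interval -2.71 to -0.67). Cd8a was found in 4 of 21 and 15 of 51, at 25.8 and 121 CPM (log2 ratio 2.12, interval 0.90 to 3.94). Both differences held without the 5 cells, at -1.21 and 2.47. Cd4 and Cd8a were together in 3 control and 2 ISO pDC, and 11 control and 30 ISO pDC had neither. Thinned to 1000 UMIs, Cd4 was found in 4 of 21 control (5.45% to 41.9%) and 3 of 51 ISO pDC (1.23% to 16.2%). Cd8a was then found in 0 of 21 (0% to 16.1%) and 4 of 51 (2.18% to 18.9%). The intervals overlap for both genes. In the other kept cells, which include T cells, the log2 ratio of Cd8a was -2.30.

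Ly6d, a surface protein of lymphoid progenitors and B cells, was found in 14 of 21 control and 35 of 51 ISO pDC, with 0 to 34 and 0 to 61 UMIs per cell. Its level was 917 and 1845 CPM (log2 ratio 1.01, and 1.35 without the 5 cells), whereas the other kept cells, with fewer B cells in ISO, had a log2 ratio of -4.22. Dntt, Cd8b1, Il7r, Blnk, Bcl11a, and Cd7 had log2 ratios between -0.36 and 0.05. B cell RNA itself was low, as Cd79b held 10 UMIs in control and 14 in ISO pDC. Over the 13 lymphoid genes compared, the median was -0.18, and 0.08 without the 5 cells, with 2 genes higher and 2 lower, Igkc being the other gene below (-1.22).

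Trafficking receptors had a median log2 ratio of 0.01 over 16 genes, with 2 higher and 1 lower, and -0.24 with 0 higher and 2 lower without the 5 cells. The 2 above were Ccr1 (1.14, and -2.26 without the 5 cells) and Itgam (2.37, and -0.34). Selplg (PSGL-1), the selectin ligand, was found in 21 of 21 control and 50 of 51 ISO pDC. Itgb7, the integrin chain of homing to the gut, was below (345 and 161 CPM, log2 ratio -1.10, and -0.94 without the 5 cells). Ccr2, the receptor of Ccl2, was found in 11 of 21 and 32 of 51, at 371 and 449 CPM (interval -0.14 to 0.70). Growth factor and cytokine receptors had a median of -0.30 over 17 genes, with 0 past 2-fold, and -0.29 with 0 higher and 1 lower (Il13ra1, -1.29) without the 5 cells. Flt3, the receptor whose ligand sustains dendritic cells, was 206 and 130 CPM (interval -1.31 to 0.00).

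Most cytokine genes compared were higher in ISO pDC, most of all in cells with macrophage RNA. Of 14 genes compared, 9 were at least 2-fold higher and 0 lower, with a median of 3.17. Without the 5 cells 7 were higher, with a median of 1.13. Genes with few UMIs in control pDC, such as Spp1 and Cxcl2, could pass the filter on UMIs of both libraries only through ISO counts. For such genes the direction was thus set by the filter. The list summed to 6980 CPM in control and 15984 CPM in ISO pDC, and to 5930 CPM without the 5 cells. Its median per cell was 4886 CPM in control and 2477 CPM in ISO pDC. Spp1 held 2 UMIs in control pDC and 1155 in ISO pDC, of which 1 cell held 1094. Cxcl2 and Il1b held 4 and 18 UMIs in control and 903 and 554 UMIs in ISO pDC, and the highest ISO cell of each gene held 415 and 260 of these. The other kept cells of the ISO library had Cxcl2 at 15494 CPM, and the part of their RNA in these values was not tested. Ccl4 (MIP-1beta), a chemokine that attracts T and NK cells, went the other way. It was found in 21 of 21 control and 42 of 51 ISO pDC, at 5996 and 3696 CPM (log2 ratio -0.70, interval -0.82 to -0.58), while the other cells had a log2 ratio of 0.999. Il12a was found in 4 control and 17 ISO pDC (46.4 and 78.9 CPM, interval -0.37 to 2.05).

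Slpi, an inhibitor of leukocyte elastase, was higher in ISO pDC. It held 0 to 8 UMIs per control pDC and 0 to 271 per ISO pDC, and it was found in 7 of 21 and 33 of 51 cells. Its level was 149 and 1350 CPM (log2 ratio 3.15, interval 2.63 to 3.77), and 513 CPM and a ratio of 1.76 without the 5 cells. The highest ISO cell held 271 of the 445 Slpi UMIs of ISO pDC. The ratio without the 5 cells lay outside the interval, which leaves out the spread between cells. After thinning to 1000 UMIs, Slpi was found in 14.3% of control (3.05% to 36.3%) and 39.2% of ISO pDC (25.8% to 53.9%), and the intervals overlap. Without the 5 cells the ISO share was 32.6% (19.5% to 48.0%). The shares were 2.07% and 21.5% in macrophages and 0.402% and 5.88% in B cells. The other kept cells had 94.9 and 602 CPM, a log2 ratio of 2.67.

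Genes of the secretory pathway and the unfolded protein response, by which a cell folds and exports proteins, were above 0 for the most part in ISO pDC. Over 37 genes the median log2 ratio was 0.37, with 5 at least 2-fold higher and 0 lower. Without the 5 cells it was 0.42, with 30 of 37 above 0, compared with 2227 of all 4259 genes. Hspa5 (BiP), the main chaperone of the endoplasmic reticulum, was found in every pDC, at 701 CPM in control and 1211 CPM in ISO pDC (log2 ratio 0.79, interval 0.50 to 1.08, and 0.67 without the 5 cells). Sdf2l1, a partner of BiP, was found in 4 of 21 and 25 of 51 cells (log2 ratio 1.91, and 1.52 without the 5 cells). Creld2 (2.59), Pdia4 (1.43), Ssr2 (1.18), and Dnajb11 (1.07) were the others past 2-fold. Xbp1, the transcription factor of this response, was 314 and 407 CPM (interval -0.08 to 0.83). The same genes had a median of 0.61 in the other kept cells.

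Proteasome subunits had a median of 0.43 over 17 genes with 2 higher, Psma5 (1.46) and Psma4 (1.40), and the other cells had 0.90. Nuclear genes of the respiratory complexes and ATP synthase had a median of 0.31 over 53 genes, with 1 higher and 0 lower. Cytochrome c oxidase subunits had 0.29 over 11 genes, with 0 past 2-fold. Genes of the mitochondrial genome had -0.22 over 7 genes. Glycolysis genes and HIF1 targets had 0.87 over 14 genes, with 7 higher and 1 lower, and 0.58 with 4 higher without the 5 cells, compared with 1.84 in the other cells. Without the 5 cells, Mif (1.17), Higd1a (1.25), Slc16a3 (1.25), and Pkm (1.07) were past 2-fold.

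Adrb1, a receptor for ISO, held 0 UMIs in control and 0 in ISO pDC. Genes of the cAMP and glucocorticoid response had a median log2 ratio of -0.50 over 18 genes, with 2 higher and 3 lower, and -0.44 with 0 higher and 4 lower without the 5 cells. Crem, a modulator induced by cAMP, was found in 16 of 21 control and 23 of 51 ISO pDC, at 299 and 115 CPM (log2 ratio -1.37, interval -2.00 to -0.76). Nr4a1, a nuclear receptor of the early response, was found in 21 of 21 and 32 of 51, at 634 and 373 CPM (-0.76). Crem was also lower in the other cells of the ISO library (-1.31). Fkbp5, a glucocorticoid target, held 2 and 16 UMIs, under the count needed to compare it.

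Immediate early and stress genes had a median of 0.68 over 26 genes with all cells (9 higher, 1 lower) and 0.01 without the 5 cells (4 higher, 3 lower). Jun was found in 14 of 21 control and 35 of 51 ISO pDC, at 325 and 950 CPM (log2 ratio 1.54), and its ratio was 0.90 without the 5 cells and -0.45 after thinning to 1000 UMIs. No direction is therefore given for Jun. Fosb was lower with all cells (-1.88) and without the 5 cells (-1.77). Hsp90ab1, a cytosolic chaperone, was found in every pDC, at 1911 and 3511 CPM (0.88, and 0.90 without the 5 cells). Survival and death genes had a median of 0.55 over 14 genes (4 higher, 1 lower), and 0.33 (3 higher, 1 lower) without the 5 cells. Bcl2l11 (Bim), which promotes death, was the gene below (489 and 212 CPM, -1.20). Cell cycle genes had -0.40 over 7 genes, and -0.18 without the 5 cells, with 0 past 2-fold either way. MHC class I genes had -0.05 over 20 (0 higher, 1 lower), and 0.07 with 0 past 2-fold without them.

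The genes named by the size of their ratio were 15 above and 15 below, among genes whose level in pDC of the higher library was at least that of its other cells. Log2 ratios ran from 1.496 to 3.84 above and from -2.46 to -1.60 below, and without the 5 cells 13 and 15 of them remained past 2-fold. Besides Slpi, Cd8a, and Jun, the genes above were Fabp5, Tmem208, Ube2m, Ndnl2, Srsf7, Cnpy2, Ddx39, Stra13, Zranb2, Agpat5, Ndufv1, and March5. Fabp5 came from 3 ISO cells and its ratio was -0.34 without the 5 cells. Cnpy2, a protein of the endoplasmic reticulum, was found in 5 of 21 and 28 of 51 pDC (log2 ratio 1.78, and 0.16 in the other cells). Tmem208, of the same compartment, was found in 4 of 21 and 24 of 51 (2.08).

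Below were Cd209d, Cd209a, and Cd4, with Plxnc1, Kpnb1, Pvr, Zbtb20, Zbtb38, Foxo3, Gm26924, Gm3362, Gm6807, Rpl14-ps1, mt-Tq, and mt-Tp. Plxnc1, a semaphorin receptor, was 113 and 27.3 CPM (-2.01), and Pvr (CD155), a ligand of NK and T cell receptors, was 165 and 48.6 CPM (-1.74). Pvr and the Cd209 genes were the 3 that went the other way in the remaining cells. Gm26924, a noncoding RNA gene, made up 59164 CPM of control and 16200 CPM of ISO pDC. It held 294 to 817 UMIs per control pDC and 42 to 235 per ISO pDC, in cells of unequal depth. Per 10000 UMIs the medians were 585 in control and 174 in ISO pDC. The highest ISO cell reached 603 per 10000, so the ranges overlap at equal scale. The other cells had a log2 ratio of -2.29. Gm26924, the pseudogenes, and the mitochondrial tRNA genes share reads with near copies, so their counts are uncertain.

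**Figure D3:**
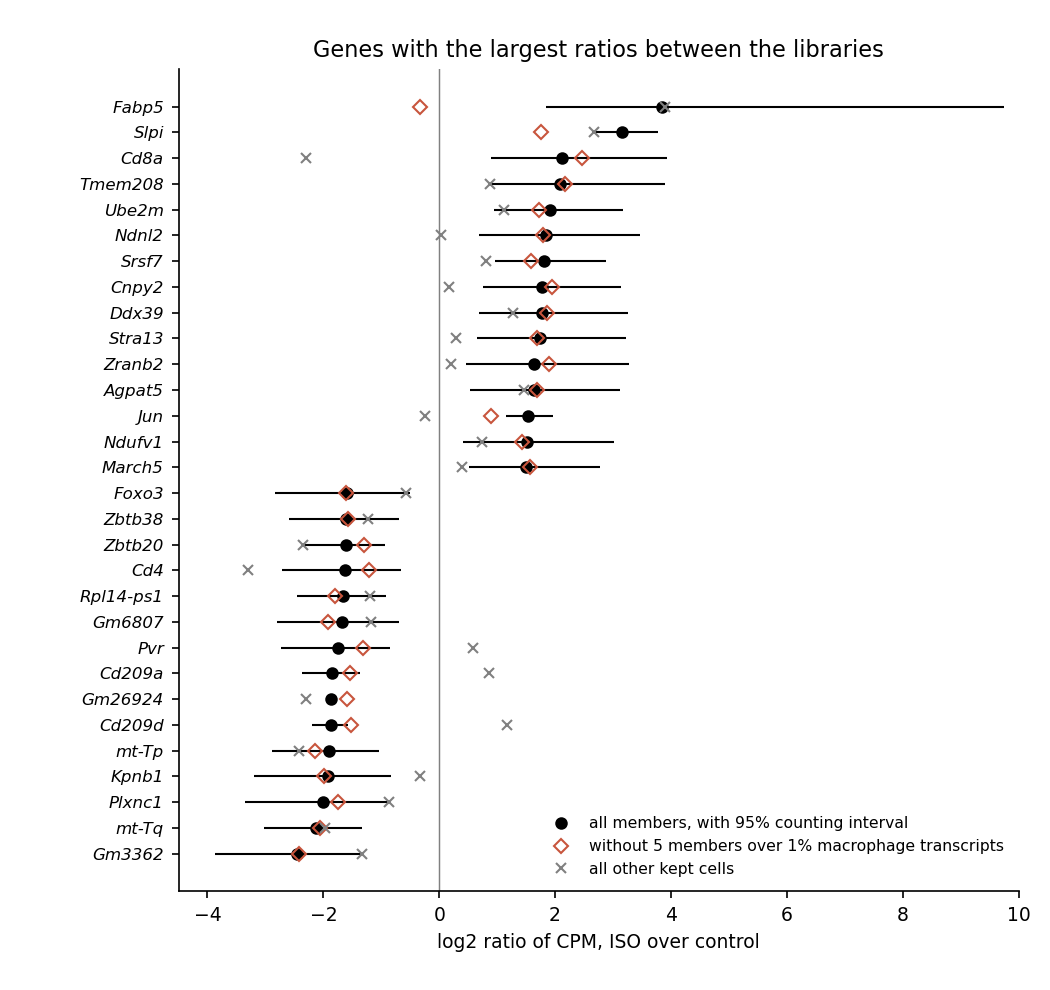
Log2 ratio of CPM, ISO over control, of the 30 genes named by the size of their ratio; filled points are all pDC with 95% counting intervals, open diamonds leave out the 5 ISO pDC with over 1% macrophage transcripts, and crosses are all other kept cells. Fabp5 and Slpi move most without the 5 cells, and Cd8a, Jun, Cd209d, Cd209a, and Pvr lie on the other side of 0 in the other cells.

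**Figure D4:**
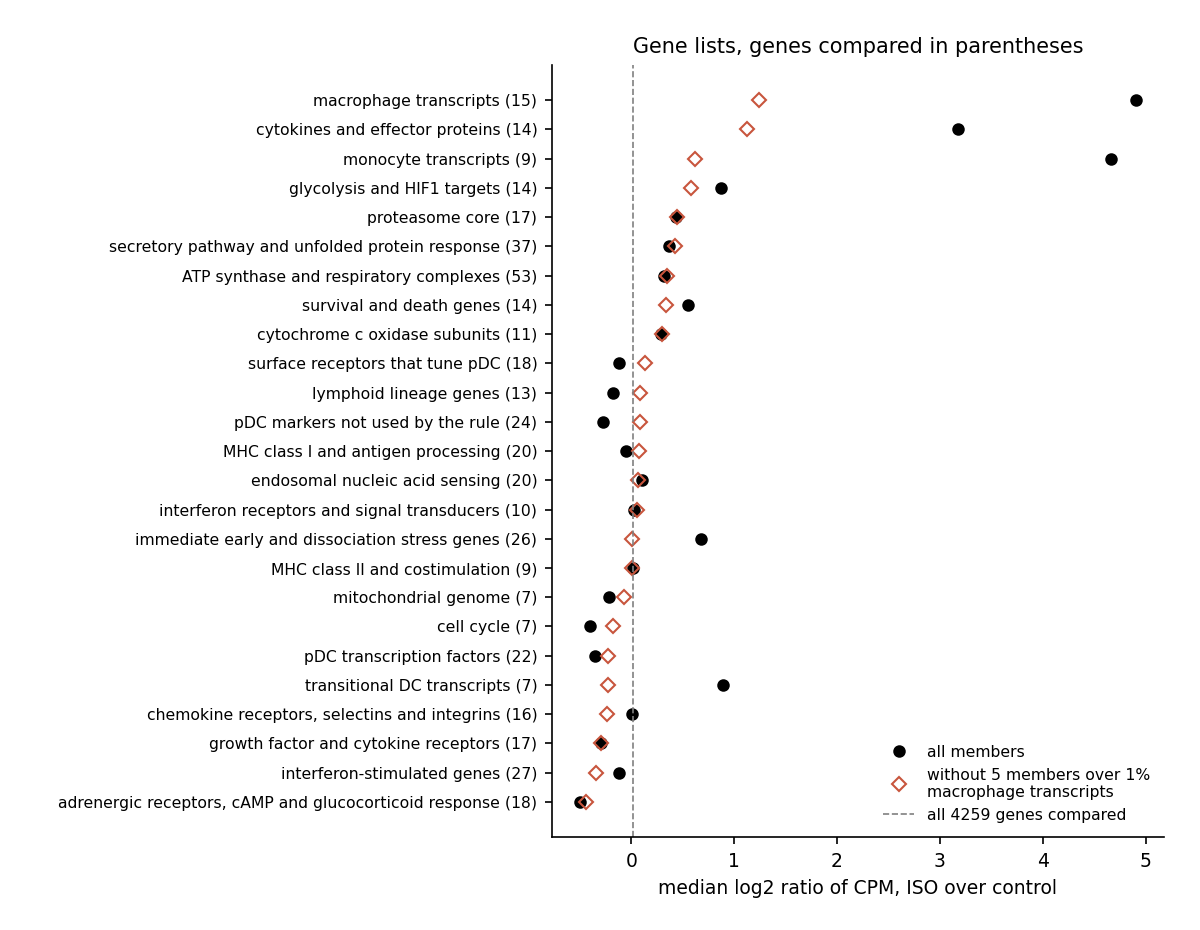
Median log2 ratio of CPM, ISO over control, of each gene list with at least 5 genes compared (number in parentheses), with all pDC (filled points) and without the 5 ISO pDC with over 1% macrophage transcripts (open diamonds); the dashed line is the median of all 4259 genes. Lists of macrophage, monocyte, and cytokine genes move most between the 2 markers, whereas the secretory pathway list goes from 0.37 to 0.42.

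pDC differed among themselves in MHC class II, by which cells present antigen to CD4 T cells. UMIs of H2-Aa, H2-Ab1, H2-Eb1, and Cd74 per 10000 UMIs ran from 0 to 221 in control pDC (median 85.6) and from 0 to 215 in the 46 ISO pDC without much macrophage RNA (median 36.5). At a limit of 20, chosen after the values were seen, 15 control pDC were high and 6 low, and 27 ISO pDC were high and 19 low. Between 10 and 40 lay 1 control and 10 ISO pDC, so the ISO cells were not cleanly parted. The share of high cells was 71.4% in control (47.8% to 88.7%) and 58.7% in ISO pDC (43.2% to 73.0%), and the intervals overlap. High and low cells had similar depth, with median UMIs of 9234 and 8925 in control and 5187 and 5255 in ISO pDC. As a whole, pDC had less Cd74 (4991 and 3714 CPM) than type 2 conventional dendritic cells (20783 and 19341 CPM).

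Promoters of 2 MHC class II genes are shown because a CCAAT box, the binding sequence of NF-Y, is a known element of this family. They are the 250 bases before the RefSeq start on GRCm38.p6, on the sense strand, with ATTGG or its reverse complement CCAAT in capitals.
H2-Aa, chr17:34287824-34288073, strand -: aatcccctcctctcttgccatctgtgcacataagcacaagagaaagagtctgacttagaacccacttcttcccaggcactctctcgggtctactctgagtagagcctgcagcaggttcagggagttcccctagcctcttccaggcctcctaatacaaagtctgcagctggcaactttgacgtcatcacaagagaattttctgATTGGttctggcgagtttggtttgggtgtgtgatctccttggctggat
H2-Eb1, chr17:34305617-34305866, strand +: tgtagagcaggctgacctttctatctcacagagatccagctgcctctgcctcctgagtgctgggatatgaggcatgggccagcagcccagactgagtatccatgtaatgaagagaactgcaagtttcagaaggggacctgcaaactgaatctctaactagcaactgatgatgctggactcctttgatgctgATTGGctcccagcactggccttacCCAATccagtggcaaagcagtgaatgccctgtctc
The match starts 48 bases before the start of H2-Aa, and at 59 and 35 bases before H2-Eb1. Of all 32851 promoters, 33.8% held ATTGG on either strand. Neither promoter held the E-box CAGGTG.

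Genes other than the 4 of MHC class II were compared between high and low cells. Of 3068 genes compared, 59 (1.92%) were at least 2-fold higher in high cells of both libraries and 51 (1.66%) at least 2-fold lower. The classes were set after the values were seen, and control had 6 low cells. How many genes another split of the cells would give was not tested, so the counts are a description only. Klk1 was found in 14 of 15 high and 0 of 6 low control pDC, and in 16 of 27 high and 4 of 19 low ISO pDC. It had helped to choose the cells, and the low control cells, which had no Cox6a2 either, passed by Siglech and Ccr9. Its level was 860 CPM in high control cells, at least 15.6-fold higher than what 0 UMIs allow in the low cells, and 817 CPM compared with 147 CPM in ISO cells. Klk1b27, a neighbor of Klk1 that is close to it in sequence, followed it (11 of 15 and 0 of 6, 10 of 27 and 1 of 19), and reads could be split between them.

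Other genes higher in high cells of both libraries, named after their values were seen, included the following. Rgs1, a brake on G protein signaling, was found in 9 of 15 high and 0 of 6 low control pDC, and in 12 of 27 and 4 of 19 ISO pDC. Ccl4 was 7858 and 1229 CPM in high and low control cells (log2 ratio 2.67) and 6083 and 2413 CPM in ISO cells (1.33). Xbp1 was found in 15 of 15 and 2 of 6, and in 25 of 27 and 13 of 19. Tlr7 was found in 12 of 15 and 0 of 6, and in 10 of 27 and 4 of 19. In ISO cells the counting interval of its log2 ratio was -0.23 to 3.47, which includes 0. Dntt, Cd8b1, Nfil3, Rpgrip1, Sema4b, and Sdc4 were higher in high cells of both libraries as well. The lists did not follow as a whole. Of 32 genes of the secretory pathway 2 were higher in both libraries and 0 lower (median log2 ratios of high over low 0.23 in control and 0.33 in ISO cells), and of 19 genes of nucleic acid sensing 1 was higher and 1 lower. Of 12 lymphoid genes 4 were higher and 0 lower, with medians of 1.62 and -0.11.

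Genes higher in low cells of both libraries were likewise named after their values were seen. Ifitm3, an antiviral membrane protein, was 1210 CPM in low and 43.0 CPM in high control cells, and 723 and 217 CPM in ISO cells. Ms4a6c was found in 5 of 6 low and 1 of 15 high control pDC, and in 13 of 19 low and 6 of 27 high ISO pDC. Runx1, a hematopoietic transcription factor, was found in 6 of 6 and 7 of 15, and in 15 of 19 and 9 of 27. Ccr2 was found in 6 of 6 and 5 of 15, and in 14 of 19 and 13 of 27. Klf4, Spi1, Fcgrt, Apod, and Prr5l went the same way. Crip1 and Vim were higher in low control cells (log2 ratios of high over low -3.29 and -3.16) and less so in ISO cells (-0.94 and -0.58). S100a4 turned over, with -4.29 in control and 1.10 in ISO cells. Of 4 genes of the monocyte list, 0 were higher in high cells of both libraries and 1 lower (medians -0.90 and -0.86), and of 6 macrophage genes 1 was higher and 1 lower.

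pDC genes varied in how far they differed between the classes. Tcf4 was 1927 and 2237 CPM in high and low control cells and 1613 and 1847 CPM in ISO cells, and Irf8 and Bst2 differed by at most 0.22 on the log2 scale in either library. Others were lower in low cells, more so in control than in ISO pDC. The log2 ratios of high over low were 3.04 and 0.90 for Spib, 3.85 and 0.42 for Smim5, and 3.16 and 0.88 for Ly6d. Genes that chose the cells went the same way, with 2.41 and 0.72 for Ccr9 and 1.25 and 0.28 for Siglech. The sum of the 4 genes had a median of 43 UMIs in high and 9.5 in low control cells, and of 27 and 16 in ISO cells, so low cells lay nearer to the threshold of 5. Over the 24 other pDC markers, 3 were higher in both libraries and 0 lower, with medians of 0.37 and 0.13.

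Lyz2 held 2 UMIs in high and 3 in low control cells, and 33 in high and 8 in low ISO cells. Cx3cr1, a marker of transitional dendritic cells, held 3 UMIs in low control and 5 in low ISO cells and 0 in high cells of either, and Axl held 0 throughout. Of the list of transitional dendritic cell genes, 6 could be compared, with 0 higher in both libraries and 1 lower in both (Klf4), where 1.66% of all genes were lower. The median log2 ratio of high over low of the 6 was -2.85 in control and -0.93 in ISO cells, compared with -0.02 and -0.03 over all 3068 genes.

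**Figure D5:**
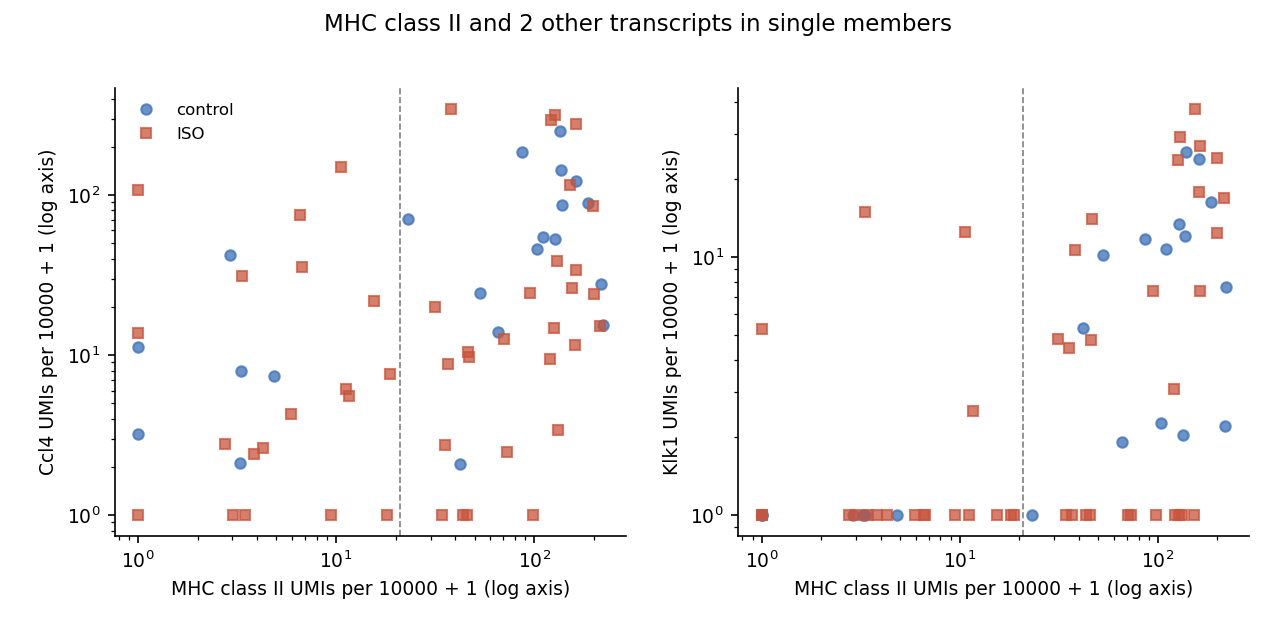
MHC class II UMIs per 10000 UMIs of each pDC (plus 1, log axis) against those of Ccl4 and of Klk1 (plus 1, log axis), for 21 control and 46 ISO pDC; the dashed line marks the limit of 20. Klk1 is at 0 in every low control cell, and the highest values of both genes lie beyond the limit.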

How the data were processed

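scRNA-Seq was analysed for 1 control and 1 ISO library. The deposited values are UMI counts per gene and barcode, without normalization. Per the labels and the submitters' processing notes, the authors used bcl2fastq 2.19.1.403, UMI-tools 1.0.0, STAR 2.7.3a, mm10, and featureCounts 1.6.4. Both labels carry the ISO protocol, and the control was identified by its title and the paper's methods.

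pDC were chosen as described in the results. Barcodes were retained if they had over 500 but below 6000 detected genes, with mitochondrial transcripts at less than 25% of UMIs. UMIs of pDC were summed per library and scaled to CPM. Log2 ratios used 0.5 added UMI and genes with at least 20 UMIs over both libraries, without the genes that chose the cells. A gene counted as past the fold at 2-fold. Shares have Clopper-Pearson intervals, and ratios have exact conditional binomial intervals, at 95%. Cells were thinned to 1000 UMIs where shares of cells with a UMI were compared. Each share came from a single random draw, made anew for each group of cells, and its interval leaves out the spread between draws. For example, Tcf4 was found in 36 of 51 ISO pDC but in 38 of the 46 with at most 1% macrophage transcripts. A share of cells or level at 0 was given the limit of 3 counts. Comparison cells held at least 3 UMIs of Xcr1 and Clec9a (type 1 conventional dendritic cells), 3 of Cd209a (type 2), 5 of Cd79a and Ms4a1 (B cells), or 10 of C1qa, C1qb, and C1qc (macrophages), with at most 1 of Siglech and the same limits on other lineages as pDC, and a cell could belong to more than 1 kind. MHC class II classes used genes with at least 10 UMIs in each library.

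The members and gene lists were chosen with earlier results of these data known. The named genes are list members with the largest levels or ratios, the 15 genes each way with the largest ratio at 100 CPM and 20 UMIs or more in the higher library and at least the level of its other cells, and the 25 genes with the largest smaller ratio of pDC over other cells at 100 CPM and 10 UMIs in each library. In all, 10 list symbols were matched through RefSeq synonyms. Python 3.11.15, numpy 2.4.6, scipy 1.17.1, pandas 2.3.3, matplotlib 3.10.9, and edgeR 4.0.16 on R 4.3.3 (TMM factors only) were used. The ratio step was tested on simulated data. Alternatives covered thresholds, lineage limits, cell filters, denominators, depth, scaling, added UMIs, and macrophage RNA. Chosen after the data were seen were the totals without Gm26924, the share without cells over 1% macrophage transcripts, and the limits of MHC class II. Doublets were treated through the lineage limits and that last 1% limit. Some genes are not reported here.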

Additional observations from a re-analysis of the deposited data

How the results depend on the processing

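The log2 ratio of the pDC share was 1.33 and lay between 1.03 and 1.48 under the 11 other alternatives. It reversed in sign to -0.48 with dendritic cells alone as the denominator, with a counting interval of -1.24 to 0.33 that includes 0. The counts of genes 2-fold higher and lower in ISO pDC (370 and 257) moved to 122 and 72 with at least 50 UMIs, to 1100 and 947 with at least 5 UMIs, and to 33 and 32 after thinning to 1000 UMIs, alternatives that by construction compare other numbers of genes. Without the 5 cells over 1% macrophage transcripts and with the 20-UMI filter applied again, 226 were higher. List medians also moved, and the cause was not tested. After thinning they were -0.24 for transcription factors, -0.010 for nucleic acid sensing, -0.25 for interferon-stimulated genes, 0.032 for surface receptors, 3.67 for cytokines, -0.25 for MHC class II, 0.13 for MHC class I, 0.49 for the secretory pathway, -0.17 for immediate early genes, -0.010 for cytochrome c oxidase, -0.10 for the mitochondrial genome, -0.16 for respiratory complexes, -0.051 for the proteasome, and -0.072 for pDC markers. With a macrophage profile subtracted they were -0.11 for transcription factors, 0.087 for surface receptors, 1.35 for cytokines, -0.16 for MHC class II, 0.15 for MHC class I, 0.47 for the secretory pathway, 0.16 for lymphoid genes, -0.63 for the cAMP and glucocorticoid response, -0.20 for immediate early genes, 0.10 for glycolysis, -0.12 for the mitochondrial genome, 0.23 for respiratory complexes, -0.29 for survival genes, and 0.060 for pDC markers. With members of at least 8 UMIs and 5 of Siglech they were -0.0016 for nucleic acid sensing, -0.32 for interferon-stimulated genes, -0.051 for surface receptors, -0.052 for growth factor receptors, 2.24 for cytokines, -0.42 for MHC class II, 0.55 for immediate early genes, 0.58 for glycolysis, -0.31 for survival genes, -0.022 for the cell cycle, and -0.18 for pDC markers. TMM factors gave -0.22 for pDC markers. The other 41 list medians moved less. Among named genes, Jun reversed to -0.45 after thinning. Lists with under 5 genes left gave no value. The limit of 20 for MHC class II, its alternatives of 10 and 40, and the totals without Gm26924 were chosen after the data were seen. No paired analysis was possible because each group has 1 library, and for the same reason no replicate could be left out.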
